A study of Mus musculus with 6 samples.

Results

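The Id and E protein genes were followed on 6 single-colour Affymetrix arrays of T cells from mouse lymph nodes, of which 3 held RNA of Ezh2 fl/fl T cells and 3 held RNA of Ezh2 deficient T cells. The members were taken as every probe set whose single gene symbol in the platform annotation was Id1, Id2, Id3, Tcf3, Tcf4 or Tcf12, which gave 19 probe sets of 6 genes among 45101 probe sets. In the usual notation the Ezh2 fl/fl allele carries loxP sites around part of Ezh2, which encodes the enzyme of Polycomb repressive complex 2 that places methyl groups on lysine 27 of histone H3. The labels name no Cre driver, strain, sex, age or batch. They also do not say whether arrays of a group came from separate animals, so every p-value below measures only the spread between these arrays, which may be partly technical.

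E proteins are basic helix-loop-helix transcription factors that bind DNA as pairs at the E-box, the sequence CANNTG. Tcf3 encodes E12 and E47 (together E2A), Tcf12 encodes HEB and Tcf4 encodes E2-2. Id proteins have the helix-loop-helix part but not the basic part that contacts DNA, so an Id protein bound to an E protein keeps it off DNA. In T cells this balance takes part in the checkpoints of thymic development, and in the periphery Id2 and Id3 are known for their roles in effector and memory cells, in follicular helper cells and in regulatory T cells. The symbols Tcf3 and Tcf4 have also been used as synonyms of the unrelated genes Tcf7l1 and Tcf7l2, which the annotation lists separately and which are not members.

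Id3 was the 1 tested member whose arrays separated by genotype, 0.43 higher on the log2 scale in the Ezh2 deficient T cells, a difference that did not pass the test over all probe sets. Id2, Tcf3 and Tcf12 differed by at most 0.11 on the log2 scale on every tested probe set. Id1 and Tcf4 were dim, and the groups overlapped on each of their tested probe sets. Values are quantile-normalised intensities, and differences are those of log2(intensity + 43.3), Ezh2 deficient minus Ezh2 fl/fl, a scale that understates changes of dim probe sets. Of the 19 probe sets, 14 passed the filter on low values (a mean log2 value at or above the 40th percentile, an intensity of about 113) and were tested with limma among 27022 probe sets. The 5 that did not pass were 4 of Tcf4 and 1 of Tcf3.

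**Figure D1:**
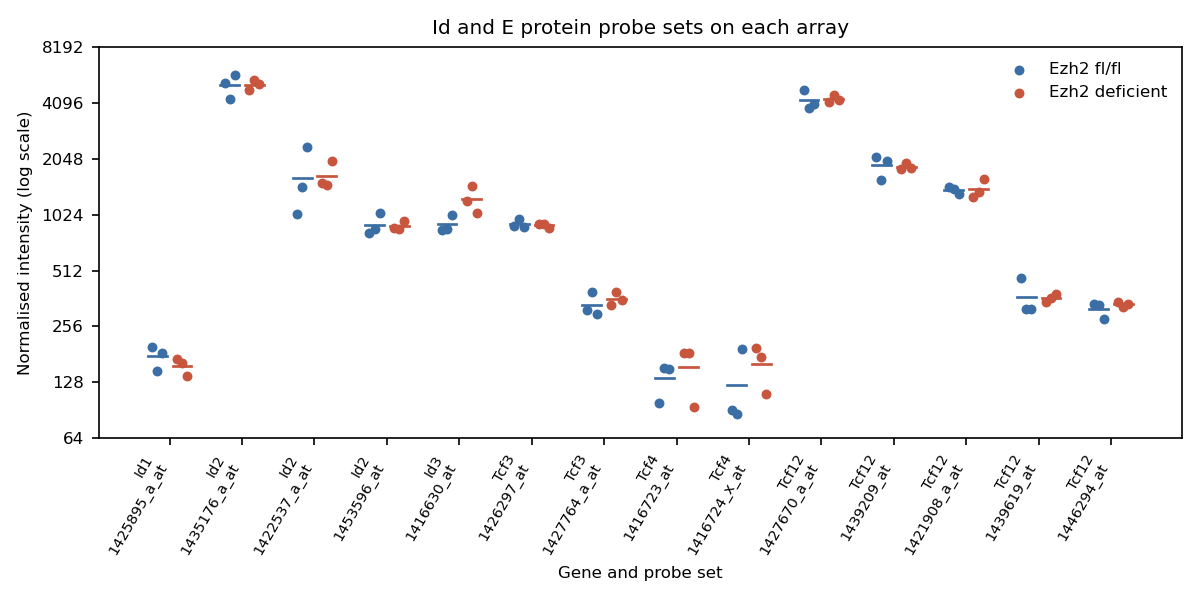
Normalised intensity (log axis) of the 14 tested Id and E protein probe sets on each of the 6 arrays, with 1 point per array and a bar at the mean of each group of 3. Id3 is the probe set whose Ezh2 deficient points (1046 to 1463) all lie above its Ezh2 fl/fl points (844 to 1021), and heights are not comparable between probe sets.

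Limma called 0 of the 14 tested member probe sets at an adjusted p under 0.05, against 1 of 27022 probe sets in all (0.00370%). At an unadjusted p under 0.05 there was 1 of 14, Id3, against 7.22% of all tested probe sets. The groups did not overlap for 1 of 14, against 13.1% of all tested probe sets. Counted by probe set, the shares of the members were thus close to or below those over all probe sets. Counted by gene on the brightest probe set, 1 of 6 members (16.7%), Id3, was at an unadjusted p under 0.05, against 3.92% of all genes higher and 4.29% lower. Its groups alone did not overlap, against 6.40% of all genes on the higher side and 7.80% on the lower. With 6 genes, that share rests on Id3 alone. A higher mean in the Ezh2 deficient arrays was found for 10 of the 14, against 49.3% of all tested probe sets. That direction depends in part on the scaling: with each array centred on its median, 13 of 14 members and 62.1% of all tested probe sets were higher. The median difference was 0.03 over the 14 members and -0.003 over all 27022.

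The targeted gene and the T cell markers were read as a check of the labels. The Ezh2 probe set read 579, 684 and 801 in the controls against 282, 289 and 276 in deficient T cells, each in the order of replicates 1, 2 and 3, a log2 difference of -1.16 (SE 0.13; limma p = 7.83e-06, adjusted p = 0.0705, exact permutation p = 0.10). Its adjusted p ran from 0.0306 to 0.263 over 15 alternative settings and was under 0.05 in 4 of them, so its call over all probe sets depends on the setting. All 9 T cell markers on the arrays passed the filter, and their summed intensity ran from 76195 to 78463 in the controls against from 76601 to 77117 in deficient arrays. Ezh2 fl/fl replicate 1 was far from the remaining 5 on the first principal component, at -41.5 where the others ran from 1.48 to 15.1. Fewer cells of a type and less RNA per cell cannot be told apart in such bulk samples.

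Among the Id genes, Id3 encodes the inhibitor that T cell receptor signalling induces through Egr factors. Its single probe set, 1416630_at, read 844, 856 and 1021 in the controls against 1217, 1463 and 1046 in deficient arrays, each in the order of replicates 1, 2 and 3. The groups did not overlap, though the lowest deficient array, replicate 3, lay only just above the highest control array, replicate 3. The means were 907 ± 98.7 and 1242 ± 210 (SD, n = 3 each). The log2 difference was 0.43 (SE 0.13, 95% interval 0.13 to 0.72), or 1.34-fold on the scale of intensity + 43.3, with an interval of 1.10 to 1.65. Limma gave an unadjusted p of 0.00936 and an adjusted p of 0.619 over all tested probe sets. The exact two-sided permutation p of the 6 values was 0.10, the smallest that 3 arrays against 3 allow. Without Ezh2 fl/fl replicate 1 the log2 difference was 0.38 (limma adjusted p = 0.672), and without Ezh2 deficient replicate 2, the highest array, it was 0.31 (limma adjusted p = 0.830). As no other Id3 probe set is on the array, the difference could not be compared with a further probe set.

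The 250 bases before the Id3 start site are shown beside those of Id2, its relative whose values did not separate, because CG-rich promoters are the class of DNA at which Polycomb complexes are known to gather. They come from RefSeq on GRCm38.p6, at chr4:136143572-136143821 on the plus strand for Id3 and at chr12:25096093-25096342 on the minus strand for Id2. Each is written 5′ to 3′ on the strand of the gene, with the CG pairs in capitals.
Id3: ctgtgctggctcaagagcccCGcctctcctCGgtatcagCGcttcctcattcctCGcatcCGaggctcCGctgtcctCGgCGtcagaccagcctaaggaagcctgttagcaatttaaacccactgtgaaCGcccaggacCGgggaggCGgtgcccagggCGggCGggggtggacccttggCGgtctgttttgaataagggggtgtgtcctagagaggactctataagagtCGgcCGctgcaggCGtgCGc
Id2: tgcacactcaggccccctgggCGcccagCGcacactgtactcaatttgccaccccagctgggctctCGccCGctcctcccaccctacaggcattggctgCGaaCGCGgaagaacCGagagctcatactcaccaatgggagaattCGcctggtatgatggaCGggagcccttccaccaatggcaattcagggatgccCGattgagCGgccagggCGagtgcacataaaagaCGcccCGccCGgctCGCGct
Both windows hold 18 CG pairs, more than 78.3% of the 32851 RefSeq promoter windows of the same length. The E-box letters CANNTG, which read the same on both strands, occur 0 times in the Id3 window and 1 time in the Id2 window, as CAGCTG with its first base 196 bases before the start. They occur in 66.2% of all windows. The arrays measured neither binding nor histone marks at these sequences, and a match or its lack describes these letters alone. Of the 6 members, 4 had an entry in the promoter table.

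Id2 encodes the inhibitor known for natural killer cells, innate lymphoid cells and effector T cells. Its brightest probe set, 1435176_a_at, read 5219, 4284 and 5780 in the 3 Ezh2 fl/fl arrays and 4787, 5413 and 5182 in the 3 Ezh2 deficient arrays. The deficient arrays all fell within the range of the controls. The log2 difference was 0.02 (95% interval -0.21 to 0.25; limma adjusted p = 0.978), so a change beyond 1.19-fold up or below 0.862-fold lay outside the interval. Probe set 1453596_at was at -0.02 (95% interval -0.27 to 0.23).

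The third Id2 probe set, 1422537_a_at, varied far more, at 1035, 1435 and 2379 in the controls against 1519, 1488 and 1984 in deficient arrays. Its spread lay within the groups, with an SD of 690 around 1616 in the controls and of 278 around 1663 in deficient arrays. Over the 6 arrays its log2 values ran with those of 1453596_at (Pearson r = 0.956) more closely than with those of 1435176_a_at (r = 0.41), which describes 6 arrays and carries no test. Affymetrix names ending in _a_at mark probe sets that match several transcripts of a gene. The log2 difference of this probe set was 0.11 (95% interval -0.45 to 0.67), and with 1 array left out it ran from -0.16 (without Ezh2 fl/fl replicate 1) to 0.42 (without Ezh2 fl/fl replicate 3), where the unadjusted p was under 0.05 and the limma adjusted p was 0.606.

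**Figure D2:**
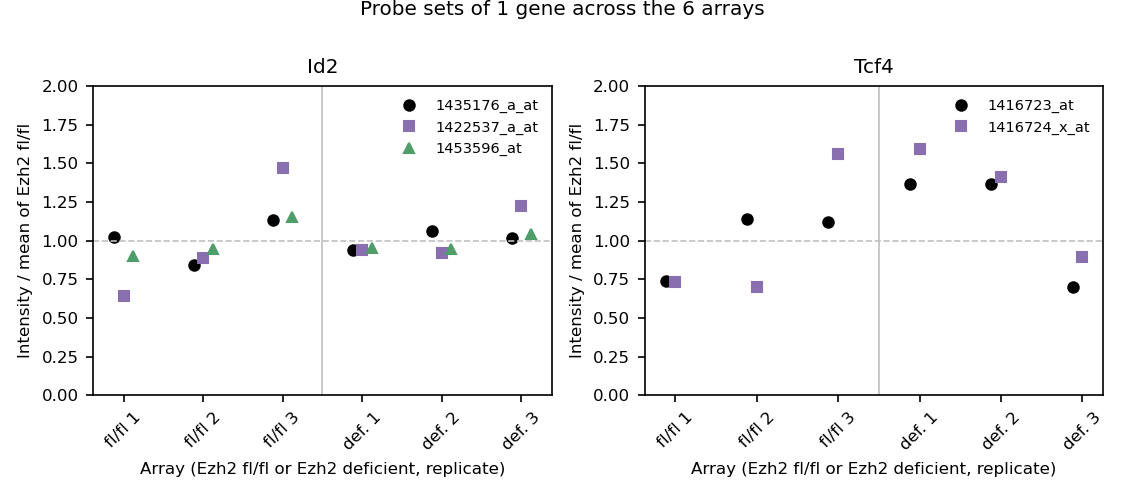
Intensity of each tested probe set of Id2 (left) and Tcf4 (right) on each array, divided by the mean of that probe set in the 3 Ezh2 fl/fl arrays (dashed line at 1), with 1 marker shape per probe set. For Id2, probe set 1422537_a_at spreads from 1035 to 2379 within the controls while the other probe sets stay close to 1, and for Tcf4 both probe sets have low and high arrays in each group.

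Id1, the Id gene best known from endothelium and from the response to bone morphogenetic proteins, had 1 probe set. It read 198, 148 and 184 in the controls against 171, 162 and 138 in deficient arrays. The groups overlapped, and the log2 difference was -0.13 (95% interval -0.50 to 0.24; limma adjusted p = 0.884). Of 12 markers of endothelium and stroma on the arrays, 6 passed the filter and 4 (Tek, Pdgfrb, Vwf and Tie1) were at or below an intensity of 43.3 on average. Their summed intensity was 2071 to 2663 in the controls against 2182 to 2315 in deficient arrays, and the highest array for both these markers and Id1 was Ezh2 fl/fl replicate 1. The part of such cells in the Id1 values was not tested.

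Of the E protein genes, Tcf12, which encodes HEB, had 5 probe sets, all tested. The brightest, 1427670_a_at, read 4782, 3856 and 4020 in the controls against 4164, 4526 and 4239 in deficient arrays. The deficient values lay inside the range of the controls, and the log2 difference was 0.04 (95% interval -0.16 to 0.23; limma adjusted p = 0.944). The other 4 probe sets were at -0.01, 0.01, 0.01 and 0.07, with 95% intervals that together ran from -0.34 to 0.35. On all 5 probe sets the highest control array was Ezh2 fl/fl replicate 1, by the widest margin on 1439619_at at 469 against 318 and 319. Transcripts of Tcf12 include the long form and the shorter form called HEBAlt. The names of the probe sets do not say which of them each one reads.

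Tcf3, which encodes E2A, read 890, 968 and 884 in the controls against 917, 908 and 865 in deficient arrays on its brightest probe set, 1426297_at. These values varied little, with an SD of 46.7 in the controls and of 27.5 in the deficient arrays. The log2 difference was -0.03 (95% interval -0.22 to 0.17; limma adjusted p = 0.961), which places the ratio between 0.858 and 1.12. Probe set 1427764_a_at was at 0.10 (95% interval -0.20 to 0.40). The probe set 1452542_x_at, of a kind that can cross-hybridise, lay below the filter at 45.2, 65.5 and 57.7 in the controls against 69.8, 83.5 and 71.7 in deficient arrays. Its groups did not overlap, and in the fit without the filter its log2 difference was 0.25 (95% interval -0.15 to 0.66; limma adjusted p = 0.836).

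Tcf4, which encodes E2-2 and is known as the E protein of plasmacytoid dendritic cells and of B cells, was dim on all 6 of its probe sets. The 2 that passed the filter had a wide spread. Probe set 1416723_at read 99.7, 153 and 151 in the controls against 184, 183 and 94.5 in deficient arrays, so the lowest value of all lay in a deficient array. Its log2 difference was 0.13 (95% interval -0.41 to 0.67; limma adjusted p = 0.930) and turned to -0.02 without Ezh2 fl/fl replicate 1. Probe set 1416724_x_at, also of a kind that can cross-hybridise, was at 0.32 (95% interval -0.29 to 0.94; limma adjusted p = 0.826). With 1 array left out its difference ran from 0.17 (without Ezh2 fl/fl replicate 2) to 0.60 (without Ezh2 fl/fl replicate 3), where the unadjusted p was under 0.05 and the limma adjusted p was 0.606.

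Of the 4 Tcf4 probe sets below the filter, 1434148_at separated the groups, at 79.0, 74.2 and 92.1 in the controls against 115, 143 and 109 in deficient arrays. In the fit without the filter its log2 difference was 0.40 (95% interval -0.02 to 0.82; limma adjusted p = 0.780). The other 3 were at -0.01, -0.18 and 0.59, the last on a probe set with a control array at 14.3. The 6 probe sets of Tcf4 thus did not share a direction.

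Markers of the cell types that express Tcf4 most strongly were read beside it, and their summed intensities overlapped between the groups. Of 10 plasmacytoid dendritic cell markers, all tested, 5 lay above 0 and 5 below, with sums of 5890 to 8522 in the controls against 6169 to 8952 in deficient arrays. Ccr9, a chemokine receptor that T cells also express, was the brightest of them, with means of 3066 and 2676, and weighs most in these sums. Tlr7, a sensor of single-stranded RNA, did separate the groups, with means of 110 and 244 and a log2 difference of 0.93 (limma adjusted p = 0.619). It was the 1 marker of the 10 at an unadjusted p under 0.05, against 7.22% of all tested probe sets. The groups did not overlap for 13.1% of all tested probe sets.

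Of 9 B cell markers on the arrays, 6 passed the filter, 3 higher and 3 lower, with sums of 1590 to 1812 and 1603 to 1701. The 6 were Cd79b (means of 402 in the controls and 369 in deficient arrays), Blk (336 and 251), Cd22 (253 and 329), Ms4a1 (205 and 181), Ebf1 (115 and 122) and Pax5 (107 and 148). Their groups overlapped except for Pax5, the transcription factor of B cell identity, which lay higher in the deficient arrays at 0.33 (limma adjusted p = 0.751). Of all tested probe sets, 13.1% had groups that did not overlap. Cd79a, Cr2 and Blnk lay below the filter. The part of B cells and plasmacytoid dendritic cells in the Tcf4 values was not tested.

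Markers of natural killer and innate lymphoid cells, which are rich in Id2, did not overlap between the groups in sum. Over the 6 markers on the arrays the summed intensity was 1217, 1606 and 1523 in the controls against 1813, 1955 and 1639 in deficient arrays. Eomes, which T cells can also express, made up most of the sum, and its groups overlapped at a log2 difference of 0.27 (limma adjusted p = 0.732). Gzma, a granzyme gene, was at 0.63 (limma adjusted p = 0.584) and Klre1, a lectin-like receptor gene, at 0.34 (limma adjusted p = 0.712), both without overlap and the first alone at an unadjusted p under 0.05. Over all tested probe sets, the groups did not overlap for 13.1%, and 7.22% were at an unadjusted p under 0.05. The 3 markers below the filter were at -0.21 (Ncr1), 0.26 (Kit) and -0.07 (Klra8). The sum over 11 markers of conventional dendritic cells and macrophages went the other way, at 1729 to 2007 in the controls against 1511 to 1686 in deficient arrays. Of the 8 that passed the filter, 3 lay above 0 and 5 below. Csf1r, with means of 371 and 264, was at -0.42 (limma adjusted p = 0.632). It was the 1 of the 8 whose groups did not overlap and the 1 at an unadjusted p under 0.05. The part of these cell types in the Id2 and Id3 values was not tested.

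**Figure D3:**
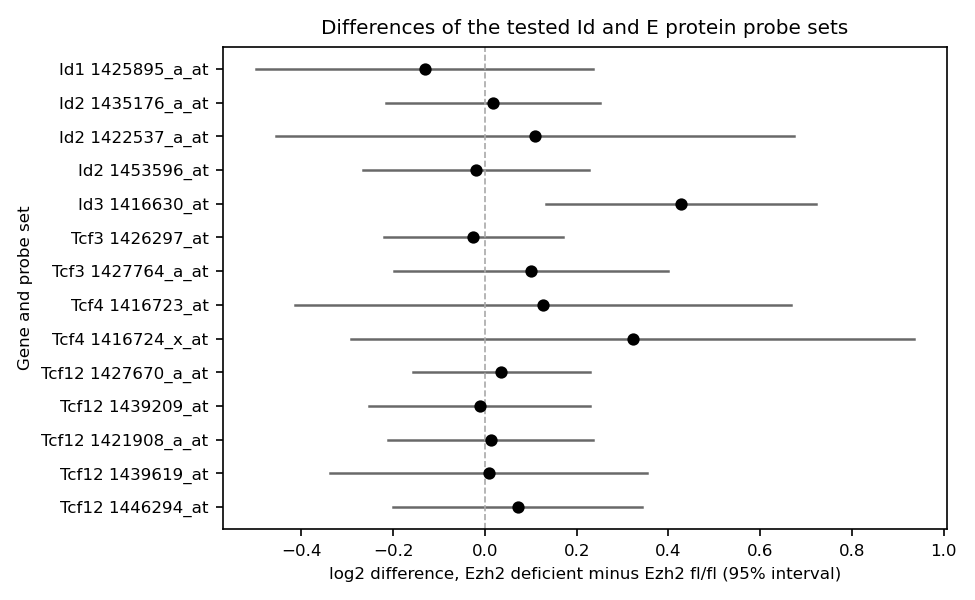
The log2 difference, Ezh2 deficient minus Ezh2 fl/fl, of each of the 14 tested Id and E protein probe sets, with its 95% interval from limma over 3 arrays a group. The interval of Id3 (0.13 to 0.72) is the 1 interval that leaves out 0 (dashed line), before any adjustment for the 27022 tests, and the widest belong to Tcf4 and to Id2 probe set 1422537_a_at.

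Genes described as targets of E proteins or Id proteins in lymphocytes were read from a list of 33, of which 27 were tested on their brightest probe set. The list was drawn up with the higher values of Cxcr5 and Gfi1 already known, so its direction is not independent evidence. Limma called 0 of them at an adjusted p under 0.05, as it did for 0 of all 12275 genes tested in this way. At an unadjusted p under 0.05 there were 5 higher and 0 lower, against 3.92% of all genes higher and 4.29% lower. Over all 52 tested probe sets of these genes 5 were under 0.05, or 9.62%, against 7.22% of all tested probe sets. The groups did not overlap for 7 genes on the higher side and 1 on the lower, against 6.40% and 7.80%. Pax5 is among the 7, and it and Ebf1 are also on the B cell marker list above. Cd4 is shared with the T cell markers, and Il7r and Lef1 with lists below. In all, 17 genes lay above 0 and 10 below, and the median was 0.02 beside -0.01 over all genes. Without Ezh2 fl/fl replicate 1 the 5 higher and 0 lower stayed at those counts, and without Ezh2 deficient replicate 1 they were 3 and 1.

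Cxcr5, the chemokine receptor that guides T cells to follicles, had the largest difference of the 27. It read 379, 392 and 318 in the controls against 498, 514 and 621 in deficient arrays, all of them above every control. Its log2 difference was 0.53 (SE 0.13; limma adjusted p = 0.483). Gfi1, a transcriptional repressor of lymphocyte development, averaged 622 ± 94.1 in the controls against 831 ± 48.5 in deficient arrays (SD, n = 3 each), a log2 difference of 0.40 (limma adjusted p = 0.596).

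The other 3 genes at an unadjusted p under 0.05 were named after their values were seen. Bcl6, the transcription factor of follicular helper T cells, was at 0.39 and at 0.11 on its other probe set, with limma adjusted p = 0.619 for the first. Notch1, the receptor that commits progenitors to the T lineage, was at 0.35 (limma adjusted p = 0.619) but at -0.01 with overlapping groups on its other tested probe set. Dtx1, which encodes Deltex, a regulator and target of Notch signalling, was at 0.24 (limma adjusted p = 0.643).

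Cdkn1a, which encodes the cell cycle inhibitor p21 and is a known E protein target, averaged 171 ± 21.0 in the controls against 222 ± 15.7 in deficient arrays (SD, n = 3 each). Its log2 difference was 0.31 (95% interval -0.02 to 0.64; limma adjusted p = 0.706). Foxp3, the transcription factor of regulatory T cells, was the 1 gene whose groups separated on the lower side, named after its values were seen. It averaged 327 ± 11.8 in the controls against 263 ± 38.9 in deficient arrays (SD, n = 3 each), a log2 difference of -0.28 (95% interval -0.58 to 0.02; limma adjusted p = 0.706). Ptcra and Rag1, both known as thymic targets of E proteins, were dim or near the floor. Ptcra, the gene of the pre-T cell receptor alpha chain, was at 0.002 (95% interval -0.47 to 0.47). Rag1, a recombinase gene of immature lymphocytes, read from 1.68 to 7.60 over all 6 arrays, far below 43.3, so no difference is given.

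**Figure D4:**
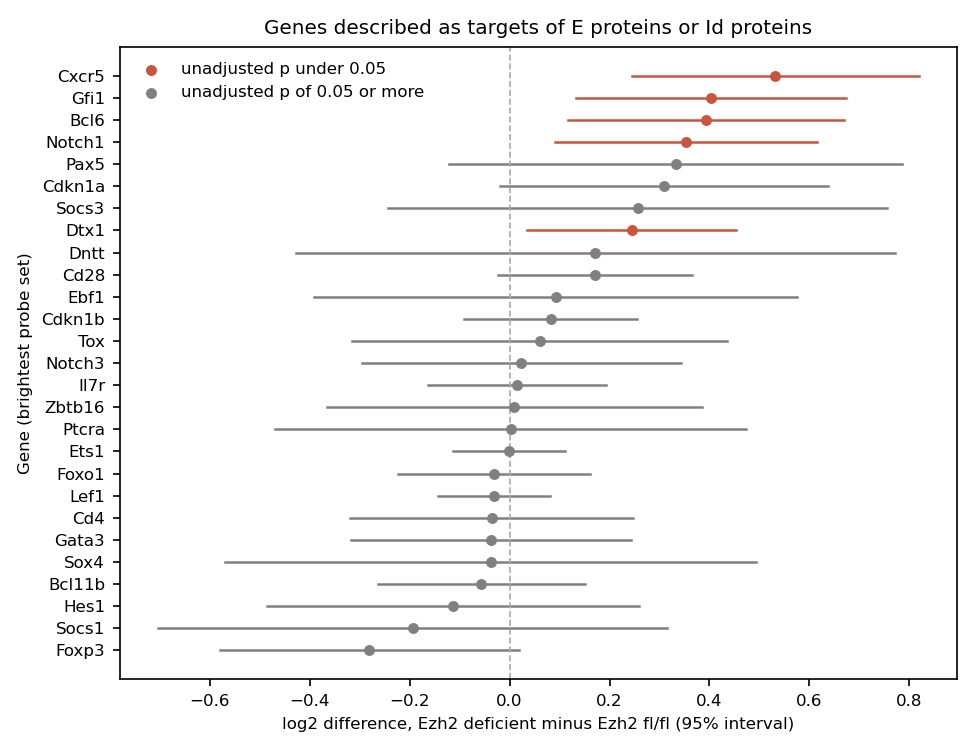
The log2 difference, Ezh2 deficient minus Ezh2 fl/fl, with its 95% interval from limma, of the 27 tested genes described as targets of E proteins or Id proteins, each on its brightest probe set. The 5 genes in red (Cxcr5, Gfi1, Bcl6, Notch1 and Dtx1) have an unadjusted p under 0.05 and lie on the higher side, and none passed the adjusted test.

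Signals known to act upstream of Id genes, the Smad, bone morphogenetic protein, Egr and cytokine components, gave 23 tested genes of 27. Limma called 0 at an adjusted p under 0.05. At an unadjusted p under 0.05 there were 2 higher and 0 lower, against 3.92% and 4.29% of all genes. The groups did not overlap for 2 genes on the higher side and 1 on the lower, against 6.40% and 7.80%. In all, 17 genes lay above 0 and 6 below, and the median was 0.03 beside -0.01 over all genes. Over all 47 tested probe sets of these genes, 4 were under 0.05, or 8.51%, against 7.22% of all tested probe sets. Bmpr2, a receptor for bone morphogenetic proteins, averaged 290 ± 8.51 in the controls against 404 ± 16.9 in deficient arrays (SD, n = 3 each; log2 difference 0.43, limma adjusted p = 0.520), with 0.24 and 0.16 on its other, dimmer probe sets. Egr2, an early response factor downstream of the T cell receptor, averaged 661 ± 26.5 and 799 ± 39.5 (log2 difference 0.26, limma adjusted p = 0.636), with 0.29 on its other probe set. Egr1, which is known to induce Id3, was at 0.10 (95% interval -0.12 to 0.32; limma adjusted p = 0.844). Smad7, named after its values were seen, was the gene whose groups separated on the lower side, at -0.19 (limma adjusted p = 0.695). Its other probe set was at -0.43 with overlapping groups (limma adjusted p = 0.829). Stat3, a transcription factor that cytokine receptors activate, was at 0.14 with overlapping groups on its brightest probe set. On its dimmer probe sets 1459961_a_at and 1460700_at, named after their values were seen, it was at 0.46 (limma adjusted p = 0.427) and 0.22 (limma adjusted p = 0.636), each without overlap and at an unadjusted p under 0.05. Without Ezh2 deficient replicate 2 the count of 2 higher at an unadjusted p under 0.05 was 1.

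Partners and cofactors were measured next. Of 20 helix-loop-helix genes that can pair with E proteins, 8 were tested, 3 higher and 5 lower. Their median was -0.13 beside -0.01 over all genes. At an unadjusted limma p under 0.05 there were 0, against 3.92% of all genes higher and 4.29% lower. The groups did not overlap for 1 of the 8, Tcf15, on the higher side, against 6.40% of all genes. All 8 were dim, with group means from 109 to 235. The smallest p values belonged to Tcf21 at -0.30 (limma adjusted p = 0.752) and Tcf15 at 0.16 (limma adjusted p = 0.826). Id4, the remaining Id gene, lay below the filter on all 3 of its probe sets, and on 1423259_at every array was at or below 43.3.

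Of 20 genes of E protein cofactors and of Id and E protein turnover, 16 were tested, 8 higher and 8 lower. Their median was -0.03 beside -0.01 over all genes. On the brightest probe set of each gene limma called 0 at an adjusted p under 0.05 and 0 at an unadjusted p under 0.05. The groups did not overlap for 1 gene on the higher side, Cbfa2t2, and 0 on the lower, against 6.40% and 7.80% of all genes. Over all 37 tested probe sets of these genes 3 higher and 1 lower were under 0.05 unadjusted, or 10.8% against 7.22% of all tested probe sets, and again 0 at an adjusted p. Cbfa2t2, a corepressor of the ETO family, averaged 551 ± 52.8 in the controls against 647 ± 53.4 in deficient arrays (SD, n = 3 each), a log2 difference of 0.22 (limma adjusted p = 0.713). Its other probe sets were at 0.21 and at 0.76, the second under 0.05 unadjusted (limma adjusted p = 0.621), and their groups did not overlap either. Kat2b, a histone acetyltransferase, was at -0.14 (limma adjusted p = 0.727), with -0.30 (limma adjusted p = 0.633) and 0.12 on its other probe sets. The remaining 2 probe sets under 0.05 unadjusted were 1460247_a_at of Skp2, a ubiquitin ligase subunit, at 0.41 and 1429951_at of Ssbp2 at 0.20, while the brightest probe sets of these genes were at -0.13 and 0.01. Of the like-named but unrelated Tcf and Lef genes, Lef1 was at -0.03 and Tcf7l1, dim, at 0.19, and all 4 probe sets of Tcf7l2 lay below the filter.

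The genes whose log2 values followed each member most closely over the 6 arrays were found by Pearson r among 12274 other genes, on the brightest tested probe set of each gene. For Id3 they were Ccdc34 (r = 0.997), Cdadc1 (r = 0.986) and Zyg11b (r = 0.985), at log2 differences of 0.44, 0.25 and 0.15. For Id2 they were Pard6g (r = 0.996), Sox4 (r = 0.989) and Gnpda2 (r = 0.977), and for Id1 Fgf1 (r = 0.994), Zfp995 (r = 0.989) and Prdm11 (r = 0.978). Tcf12 was most like Zfp266 (r = 0.989), Tcf3 most like Rundc3a (r = 0.981) and Tcf4 most like Arl3 (r = 0.987). Each member had between 67 and 123 genes at r above 0.9. These values describe 6 arrays that share their normalisation, and they carry no test.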

How the data were processed

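The authors deposited 1 intensity per probe set and array on a linear scale, for 45101 probe sets. The software they used is not given in the sources used here. With the outer 2% of values trimmed from either end, each array averaged 500.002, which fits scaling to 1 target, while medians ran from 163.3 to 188.1. Intensities were quantile normalised and turned into log2(intensity + 43.3), 43.3 being the 20th percentile of the positive values. Control probe sets (64) and those with a mean below the 40th percentile were left out. Limma 3.58.1 (R 4.3.3, statmod 1.5.0) compared 3 arrays with 3 by eBayes with an intensity trend and 4 residual degrees of freedom, two-sided, adjusted by the Benjamini-Hochberg method over 27022 probe sets. The step was tested on simulated data. The brightest probe set stood for a gene.

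The members, lists and settings were chosen with earlier results of these data known. Genes named from a list were those with an adjusted p under 0.05, otherwise the 2 of smallest p, plus Id4, Ptcra, Rag1, Cdkn1a, Cxcr5 and Egr1. Names came from the platform annotation. Of the named probe sets, 34741 of 34945 matched RefSeq by gene identifier, with 0 symbols changed. Alternatives were other scalings, pseudocounts, filters, eBayes settings, array weights and each array left out. The number of arrays limits the precision.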

Additional observations from a re-analysis of the deposited data

How the results depend on the processing

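Limma called 0 member probe sets under all 15 other settings fitted, which covered scaling, pseudocount, filter, eBayes, array weights and each array left out. By the looser rules, an unadjusted p under 0.05 or groups that do not overlap, the count was 1 each. Id3 stayed higher in all 16 of its alternatives, from 0.31 to 0.54, with an unadjusted p between 0.00303 and 0.0413 and an adjusted p of 0.422 or more. The unadjusted p also fell under 0.05 for Id2 1422537_a_at and Tcf4 1416724_x_at without Ezh2 fl/fl replicate 3. Ezh2 stayed lower in all 15, from -1.28 to -0.91, and its adjusted p fell under 0.05 under the deposited scaling (0.0421), with robust eBayes (0.04997), with array weights (0.0346) and without Ezh2 fl/fl replicate 1 (0.0306). Probe sets called in all numbered 1, but 3 under the deposited scaling, with robust eBayes and with array weights, 2 under median centring, and 1 to 6 when an array was dropped (Ezh2 fl/fl replicate 1 gave 3, Ezh2 deficient replicate 2 gave 6).

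Members near 0 changed sign in 28 of 212 refits, with values of up to 0.16 in size. Under the deposited scaling Tcf12 1439209_at was 0.0090 and Tcf12 1439619_at was -0.018. Under median centring Id2 1453596_at was 0.047, Tcf3 1426297_at 0.043 and Tcf12 1439209_at 0.077. With array weights Id2 1422537_a_at was -0.023 and Tcf12 1439209_at 0.0060. As the mean of its probe sets Tcf3 was 0.11. With an array left out, Id2 ran from -0.10 to 0.11 on 1435176_a_at, -0.16 to 0.42 on 1422537_a_at and -0.088 to 0.082 on 1453596_at. Tcf12 ran from -0.027 to 0.13 on 1427670_a_at, -0.13 to 0.070 on 1439209_at, -0.079 to 0.077 on 1421908_a_at, -0.075 to 0.18 on 1439619_at and -0.0063 to 0.11 on 1446294_at. Tcf3 ran from -0.049 to 0.015 on 1426297_at and Tcf4 from -0.021 to 0.37 on 1416723_at. The cause of these turns was not tested.

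The list refits were chosen after seeing the data. Limma called 0 genes of each list in every one. E protein and Id targets at an unadjusted p under 0.05 were 3 to 6 higher and 0 to 1 lower with an array left out. Over all 15 alternatives the higher count ran from 3 to 7. The 0 lower became 1 under the deposited scaling and with eBayes without trend. Upstream signals were 1 to 3 higher and 0 to 1 lower with an array left out, and the 0 lower became 1 without the filter. No paired analysis was possible because the titles number the arrays consecutively over both groups, so no number is shared, and the replicate numbers used here only name arrays within a group.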
